A study of Drosophila melanogaster with 18 samples.

Results

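The 10 genes of the ecdysone nuclear receptor cascade were followed in wing imaginal discs that carried clones mutant for the Hippo pathway kinase gene warts (wts) and in control discs. The genes were taken from the deposited table of 17373 genes by symbol, and all 10 were found and passed the filter on low counts, which left 8585 genes. A wing imaginal disc is an epithelial pouch of the larva from which the wing and the back of the thorax develop. The 9 samples were control discs of day 5 (Ubx-FLP, FRT82B clones in a Minute background), wts149 discs of day 5 and wts149 discs of day 9 (the same FLP, FRT82B chromosome and Minute background, with wts149 on the clonal chromosome), 3 replicates each. Ubx-FLP makes clones by recombination in the disc, and Minute cells grow slowly, so that the non-clonal cells are outcompeted. How much of a disc was mutant is not given in the sources used here. All larvae are labelled as wandering, the stage at which larvae leave the food before they pupate. The controls are labelled day 5, but their description text reads d5.d6, so an equal age of control and wts day 5 discs is not established. No control discs of day 9 were analysed here, so in wts day 9 against control the age and the genotype cannot be told apart.

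Each replicate was the sum of an a and a b library and held 14201662 to 22263073 counts. The labels do not say whether replicates are separate sets of larvae, so p-values measure the spread between these samples. Among 90 pairs of a and b values of the 10 genes, 2 differed at an exact binomial p under 0.05. Levels are given as CPM (counts per 1000000 counts of a library, scaled with TMM factors). The 7 markers of wing disc epithelium summed to 1270 to 1352 CPM in controls, with none at 0 in any of the 9 replicates. Their sums were 1122 to 1190 CPM in wts day 5 discs and 1160 to 1262 CPM in wts day 9 discs.

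Ecdysone is the steroid hormone of insect moulting and metamorphosis. Its active form binds a heterodimer of the receptor EcR and its partner Ultraspiracle (usp), which then induces early genes such as Eip75B and, slightly later, the early-late receptor genes Eip78C, Hr46 (now named Hr3), Hr4 and Hr39. Hr46 protein activates ftz-f1 as the late larval hormone pulse declines, and the hormone-induced repressor Blimp-1 delays ftz-f1, so the genes turn on in a known order. In wing discs the late larval pulse starts eversion and the secretion of pupal cuticle.

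Over the 9 replicates, the lowest value of EcR was 57.3% of its highest and that of its partner usp was 78.8%. EcR (2R, 6087873 to 6169087, minus strand, BDGP6) was measured at 321, 299 and 245 CPM in controls 1, 2 and 3, at 382, 317 and 428 CPM in wts day 5 replicates and at 343, 348 and 308 CPM in wts day 9 replicates. The highest control value, 321, lay just above the lowest wts day 5 value, 317, so these groups overlapped. The gene has several isoforms with different activity, which counts per gene do not separate. usp (X, 2038798 to 2042311, minus strand) stood at 89.7, 82.6 and 71.6 CPM in controls, at 79.3, 74.3 and 71.0 CPM in wts day 5 discs and at 70.7, 79.6 and 80.2 CPM in wts day 9 discs, with overlap between every pair of groups. Neither gene passed the test in any comparison (edgeR quasi-likelihood test, adjusted p 0.0593 to 0.407 for EcR and 0.374 to 0.82 for usp). In the day 5 comparison EcR was higher by 0.38 ± 0.12 (log2, SE), with an adjusted p of 0.0593. It passed as a rise with every gene tested that had a count, with DESeq2 or without wts day 5 replicate 2 (adjusted p 0.0147 to 0.0497 over these fits).

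Eip75B (3L, 17950953 to 18064696, minus strand) encodes the heme-binding receptor E75, an early gene whose product restrains Hr46 protein. It stood at 207, 173 and 249 CPM in controls, at 186, 121 and 126 CPM in wts day 5 discs and at 277, 211 and 256 CPM in wts day 9 discs. All 3 wts day 9 values lay above all 3 wts day 5 values, while the controls overlapped both groups.

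The early-late genes Eip78C, Hr4 and Hr46 differed far more, between groups and within them. Eip78C (3L, 21226609 to 21266503, plus strand) encodes a receptor related to E75. Its level was 46.5, 5.64 and 62.4 CPM in controls 1, 2 and 3, 0.777, 0.702 and 0.623 CPM in wts day 5 discs and 24.4, 3.62 and 15.6 CPM in wts day 9 discs. The wts day 5 values lay below all others, and replicate 2 was the lowest of both the controls and the wts day 9 discs.

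Hr4 (X, 1941940 to 2007956, plus strand) encodes an orphan receptor, a repressor of early hormone-induced genes. Its level was 188, 2.62 and 157 CPM in controls 1, 2 and 3, 2.49, 2.11 and 2.70 CPM in wts day 5 discs and 62.4, 5.49 and 31.2 CPM in wts day 9 discs. Control replicate 2 lay among the wts day 5 values, while control replicates 1 and 3 were the highest of all 9.

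Hr46 (2R, 10203995 to 10237348, minus strand) had 797, 2 and 349 counts in control replicates 1, 2 and 3, or 37.3, 0.0889 and 18.6 CPM. It had 4, 3 and 0 counts in wts day 5 replicates 1, 2 and 3, where a count of 0 allows up to 0.156 CPM (3 counts). It had 71, 4 and 16 counts in wts day 9 replicates, or 3.79, 0.207 and 0.767 CPM. Control replicate 2 again lay among the wts day 5 values. In the Ensembl annotation the gene CG12912 covers 61.8% of the exon bases of Hr46 on the same strand, and it had 0 counts in all 9 replicates. CG46321, not analysed here, covers 58.0% of them. Whether reads in the shared exons were counted for Hr46 is unknown here, which leaves its level uncertain.

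Hr39 (2L, 21237250 to 21259675, plus strand), a close relative of ftz-f1 that binds the same DNA sites, stood at 190, 154 and 215 CPM in controls, at 151, 131 and 153 CPM in wts day 5 discs and at 228, 177 and 191 CPM in wts day 9 discs. The wts day 5 values lay below all others. ftz-f1 (3L, 18750607 to 18801309, minus strand), the competence factor of the prepupal response, stood at 51.2, 49.2 and 34.9 CPM in controls, at 94.1, 75.6 and 106 CPM in wts day 5 discs and at 75.1, 93.7 and 70.2 CPM in wts day 9 discs. Every wts value of ftz-f1 lay above every control value. A noncoding RNA gene on the same strand, CR45939, covers 29.4% of the exon bases of ftz-f1 and had 0 to 3 counts a replicate. Whether reads in these shared exons were counted for ftz-f1 is unknown here. As for EcR, counts per gene do not separate isoforms of ftz-f1.

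The orphan receptor gene Hr78 (3L, 21494019 to 21497494, minus strand), needed for ecdysteroid responses and tracheal growth, stood at 120, 107 and 120 CPM in controls. It stood at 87.6, 92.0 and 82.8 CPM in wts day 5 discs and at 99.4, 84.4 and 94.0 CPM in wts day 9 discs, so that every wts value lay below every control value. An antisense RNA gene, CR43933, covers 18.3% of its exon bases and had 14 to 29 counts a replicate, against 1310 to 2552 for Hr78. Hr38 (2L, 20683462 to 20714588, minus strand), a receptor of the NR4A family that can pair with usp, stood at 2.11, 2.40 and 1.71 CPM in controls, 2.75, 4.07 and 3.33 CPM in wts day 5 discs and 3.47, 3.83 and 1.97 CPM in wts day 9 discs. With 32 to 74 counts a replicate, its counting intervals were wide.

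**Figure D1:**
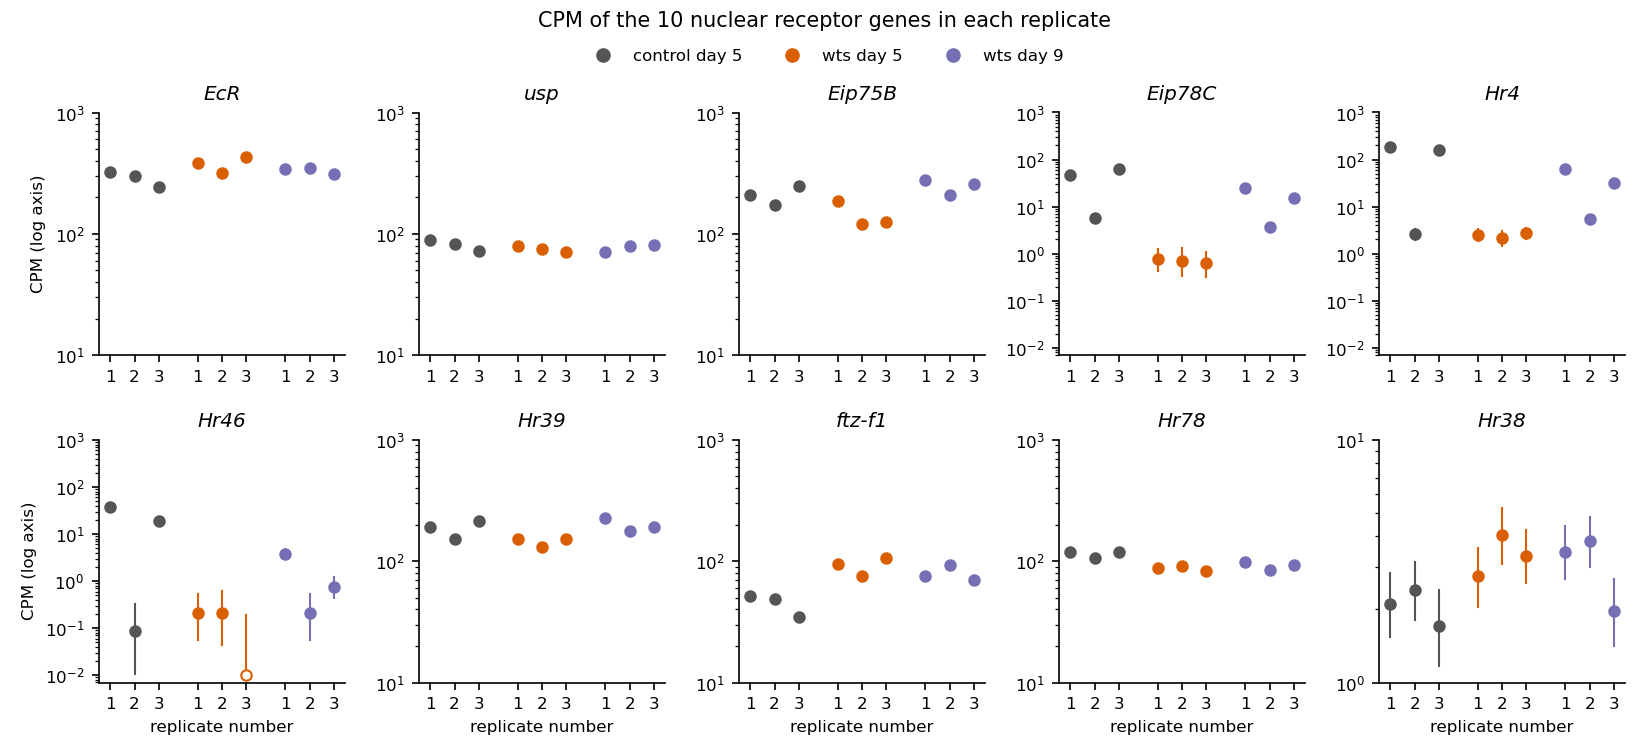
CPM of the 10 genes in each replicate (x axis: replicate number by group, y axis: CPM on a log axis whose range differs between panels). Points are replicates, vertical lines are 95% Poisson counting intervals and the open point, drawn at 0.01 CPM, marks 0 counts. Eip78C, Hr4 and Hr46 drop in control replicate 2 and in wts day 9 replicate 2, to 2.62 CPM for Hr4 in that control.

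Per kilobase of merged exon, the mean levels in controls ran from Hr78 (47.7 ± 3.18 CPM per kb, SD, n = 3), Hr39 (37.4 ± 6.22), EcR (29.0 ± 3.95) and usp (26.8 ± 3.00) to Eip75B (15.6 ± 2.83) and ftz-f1 (5.26 ± 1.04), with Hr38 the lowest of all 10 (0.269 ± 0.0452). The control ranges of EcR (24.7 to 32.3 CPM per kb) and usp (23.6 to 29.5) overlapped, and that of Hr39 (30.8 to 43.2) overlapped that of EcR. Hr4, Eip78C and Hr46 had no stable place in this order, since Hr4 ran from 0.189 to 13.5 CPM per kb among the controls. In wts day 5 discs EcR came first (37.8 ± 5.58 CPM per kb) with Hr78 next (36.1 ± 1.90), and their ranges overlapped. The exon lengths come from the Ensembl annotation and merge all isoforms, so levels of genes with many alternative first exons are understated.

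The replicates were ordered by the stage-dependent genes as a description, without a test. By mean rank of Eip78C, Hr4 and Hr46 control replicates 1 and 3 came first, then replicates 1, 3 and 2 of wts day 9, then control replicate 2, and last the 3 wts day 5 replicates. Hr46 and Hr4 do not separate control replicate 2 from the wts day 5 replicates, with 0 to 4 counts of Hr46 and overlapping counting intervals for Hr4. Eip78C does, at 127 counts against 10 to 15, while the order among the wts day 5 replicates is within counting error for all 3 genes. By Eip78C alone, control replicate 2 stood above wts day 9 replicate 2, at 5.64 CPM (95% Poisson interval 4.70 to 6.71) against 3.62 (2.82 to 4.58).

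The 3 genes did not scale together along this order. In wts day 9 replicate 1, Eip78C reached 39.0% of its highest replicate, Hr4 33.2% and Hr46 10.1%. In wts day 9 replicate 3 these shares were 25.0%, 16.6% and 2.05%. In control replicate 2 Eip78C stood at 9.04% of its highest replicate, with Hr4 at 1.39% and Hr46 at 0.238%. Accordingly, counts of Hr4 per count of Hr46 were 5.04 in control replicate 1 (95% exact interval 4.67 to 5.44), 8.42 in control replicate 3 (7.53 to 9.43), 16.5 in wts day 9 replicate 1 (12.97 to 21.3) and 40.7 in wts day 9 replicate 3 (24.9 to 71.6). These 4 intervals do not overlap. The other replicates held 0 to 4 counts of Hr46, so their ratios are poorly determined. The ratio was 29.5 in control replicate 2 and 26.5 in wts day 9 replicate 2. It was 12 and 10 in wts day 5 replicates 1 and 2, with no ratio for replicate 3, which had 0 counts of Hr46. The intervals of these ratios were wide (lowest and highest bounds 3.11 and 249) and overlapped some of the 4 above. The order itself was made from these genes, and by Eip78C alone control replicate 3 comes before control replicate 1, so the ratios are a description of single replicates and no trend is read from them. Counts of Hr4 per count of Eip78C were 4.05 in control replicate 1 (3.78 to 4.34) and 2.51 in control replicate 3 (2.34 to 2.69). In control replicate 2 they were 0.465 (0.335 to 0.637). They were 3.2, 3.00 and 4.33 in wts day 5 replicates 1, 2 and 3, within counting error of each other (lowest and highest bounds 1.43 and 8.92), and 2.56, 1.51 and 2.00 in the wts day 9 replicates, so they did not follow the order. Intervals cover counting error only.

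**Figure D2:**
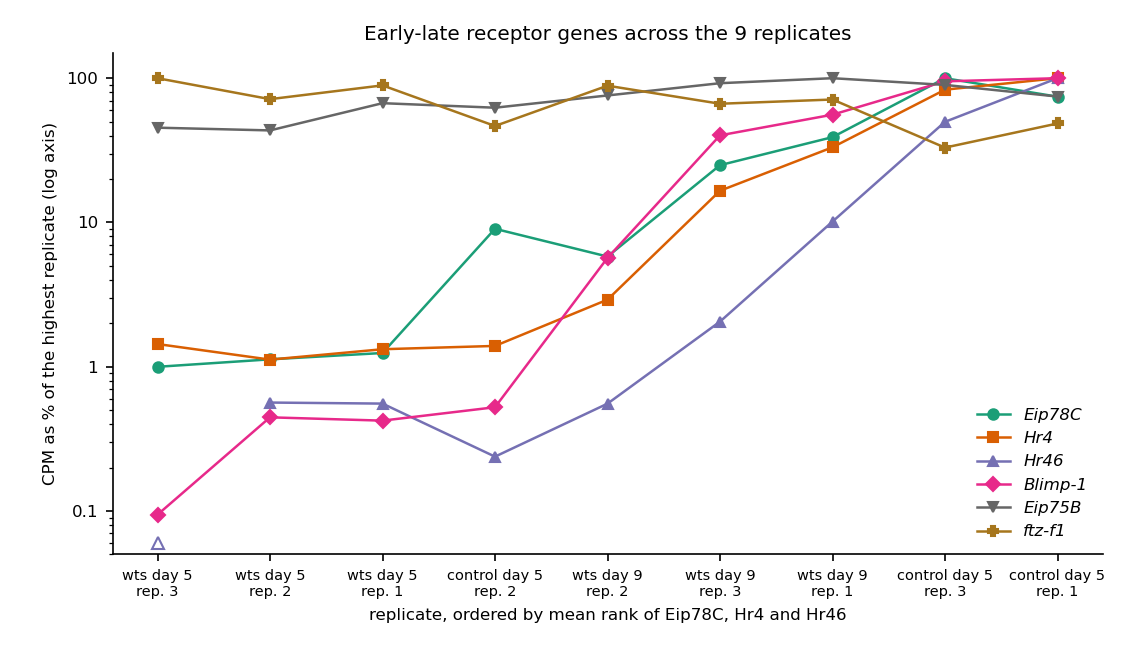
Levels of 5 of the genes and of Blimp-1, each as a percentage of its own highest replicate (y axis, log), in the 9 replicates ordered by mean rank of Eip78C, Hr4 and Hr46 (x axis). Points are single replicates and the open triangle marks 0 counts of Hr46. In wts day 9 replicate 3, Hr46 is at 2.05% while Eip78C is at 25.0%.

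The genes that followed each receptor most closely, other members included, were named by the smallest root mean square distance of log2 CPM, centred over the 9 replicates. For Eip78C they were the hormone-induced genes ImpE2 (distance 0.51) and ImpE3 (0.71), with the sulfotransferase gene St2 (0.58) between them. The controls held 2218, 452 and 2696 CPM of ImpE2 in replicates 1, 2 and 3, against 73.2, 67.4 and 22.3 CPM in wts day 5 discs and 949, 246 and 627 CPM in wts day 9 discs. For Hr4 they were CG5639 (0.84), Eip78C (0.88) and Hr46 (0.89), and for Hr46 they were Hr4 (0.89), sm (1.14) and CG13023 (1.25). For Eip75B the nearest was Sox14 (0.10), a hormone-induced transcription factor gene, and for ftz-f1 they were CG32521 (0.14), Atf3 (0.14) and exp (0.15). The nearest to EcR was CG9114 (0.08), to usp phol (0.04), to Hr39 how (0.10), to Hr78 Keap1 (0.06) and to Hr38 CG4019 (0.16). Distances are larger for genes that vary more, so they do not compare between members.

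Within groups, the spread of Eip78C, Hr4 and Hr46 stood out among all genes tested. The log2 range over the 3 controls was 3.44 for Eip78C, 6.11 for Hr4 and 7.61 for Hr46, against a median of 0.25 over the 8585 genes. Only 66, 10 and 6 genes had a wider range in the controls than these 3. In wts day 9 discs the ranges were 2.72, 3.48 and 3.65, with 36, 10 and 5 genes wider, against a median of 0.21. In wts day 5 discs Eip78C and Hr4 ranged over 0.28 and 0.34, and 37.9% and 28.6% of genes ranged wider. The 1.60 of Hr46 there rested on 0 to 4 counts. The other 7 genes ranged over 0.15 to 0.93 in any group.

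**Figure D3:**
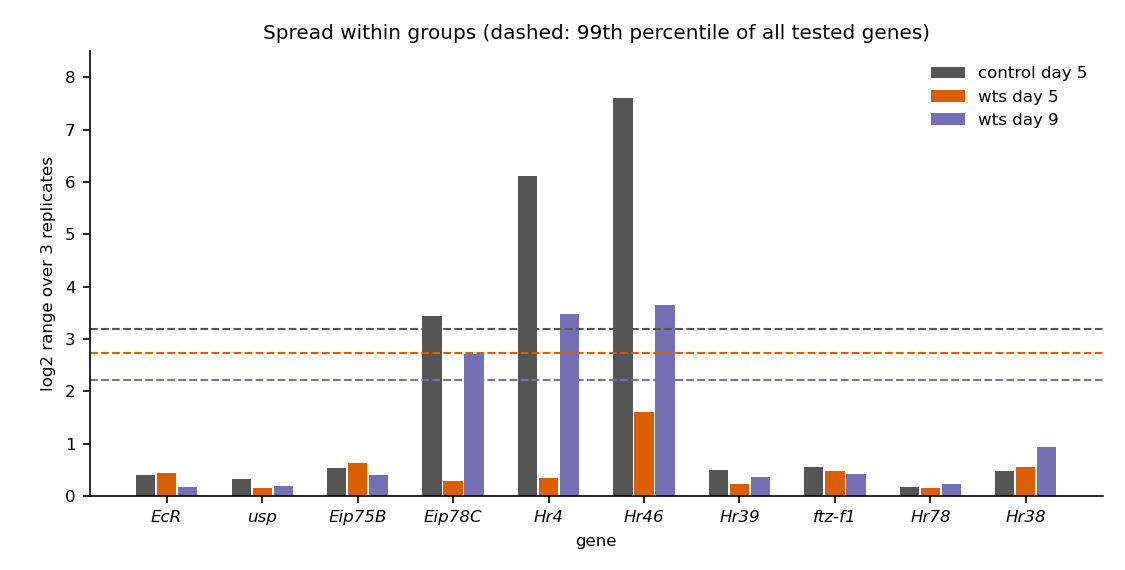
Range of log2 CPM (prior count 2) over the 3 replicates of each group for the 10 genes, as bars, with dashed lines at the 99th percentile of that range over all 8585 tested genes in the same group. Hr4 and Hr46 reach 6.11 and 7.61 in the controls, and Eip78C, Hr4 and Hr46 pass the line in the controls and in wts day 9 discs.

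Markers of other tissues were summed per replicate beside this spread. The 6 salivary gland markers summed to 3.19, 245 and 5285 CPM in control replicates 1, 2 and 3 and to 0.192 to 1.81 CPM in the wts replicates, with Sgs3 at 0 counts in wts day 5 replicate 1 and wts day 9 replicate 3. The 6 fat body markers summed to 12.6, 133 and 178 CPM in controls, 5.13 to 26.8 CPM in wts day 5 discs and 12.9, 219 and 29.7 CPM in wts day 9 discs. Hr4 and Hr46 were highest in control replicate 1, where both sums were the lowest of the controls, and Eip78C was highest in control replicate 3, where both were the highest. Their part in these levels was not tested. The 6 muscle markers summed to 193, 622 and 131 CPM in controls, 70.0 to 129 CPM in wts day 5 discs and 26.1 to 36.2 CPM in wts day 9 discs, and their part in the low values of control replicate 2 was not tested. Myoblast markers (7 genes) summed to 337 to 360 CPM in controls, 185 to 221 in wts day 5 discs and 286 to 328 in wts day 9 discs. Haemocyte markers (6 genes) ran from 60.2 to 118, 60.5 to 70.7 and 107 to 148 CPM, and tracheal markers (5 genes) from 954 to 1348, 1486 to 1617 and 1752 to 2135 CPM. The tracheal sum was mostly verm and serp. On day 5 serp rose while btl (-0.89 ± 0.14) and dys (-1.23 ± 0.19) fell, and on day 9 against control serp and verm rose while btl fell (edgeR adjusted p 0.000407 to 0.0156 over these 6 calls). Muscle, myoblast and tracheal sums were apart between all 3 groups, and haemocyte sums between the wts groups only. Of 6 muscle markers, 4 fell on day 5 and 6 on day 9 against control (median log2 -2.09 and -5.58). Of 7 myoblast markers, 5 fell on day 5 (median -0.79) and 1 on day 9 against control. From wts day 5 to day 9 the haemocyte markers Hml, NimC1, eater, Pxn and srp rose (1.65 to 3.02), where 5.44% of all genes tested were called higher. The haemocyte marker crq did not pass and held 37.8 to 53.0 CPM in every replicate. Epithelium sums were lower in every wts replicate than in every control. Of the 7 epithelium markers, vg, hh and ct fell on day 5 and none passed as a rise, where 8.88% of all genes tested were called lower. In every wts day 5 replicate nub was higher and ap lower than in every control, but neither passed (edgeR adjusted p 0.236 and 0.0728). The groups overlapped for en and Dll. On day 9 against control vg, hh and ct fell and nub rose. The part of these tissues in the differences below was not tested. In whole discs, fewer cells that express a gene and less of its RNA per cell cannot be told apart.

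The wts discs labelled day 5 were first compared with the controls. Since an equal age of these groups is not established, genotype and age cannot be told apart with certainty there. Of the 10 genes, 4 fell (Eip78C, Hr4, Hr46 and Hr78), 1 rose (ftz-f1) and 5 did not pass (edgeR, p adjusted by Benjamini-Hochberg over the 8585 genes, threshold 0.05). Of all genes tested, 8.88% were called lower, 9.64% higher and 18.5% in either direction. The median log2 fold change was -0.38 over the 10 genes and -0.0018 over all genes.

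Eip78C fell from 38.2 ± 29.3 to 0.701 ± 0.0768 CPM (mean ± SD, n = 3), a log2 fold change of -5.75 ± 1.04 (SE, edgeR adjusted p = 0.00542). Hr4 fell from 116 ± 99.3 to 2.43 ± 0.301 CPM (-5.56 ± 1.38, edgeR adjusted p = 0.0221). Hr46 fell from 18.7 ± 18.6 to 0.139 ± 0.121 CPM (-7.06 ± 1.83, edgeR adjusted p = 0.0267). For Hr46 the summed counts, 1148 against 7, gave a ratio of 138 with a 95% exact interval of 66.9 to 345. For Hr4 and Hr46 the groups overlapped, because control replicate 2 was as low as the wts discs. Their calls ended without control replicate 1 and without each wts day 5 replicate in turn (adjusted p 0.0545 to 0.111), and with limma-voom no early-late gene passed (adjusted p 0.25 for Eip78C, 0.477 for Hr4 and 0.503 for Hr46). In the fit of the 2 groups compared, Hr46 did not pass the filter on low counts. Without control replicate 2 the log2 fold change was -6.13 for Hr4 and -7.65 for Hr46.

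The other calls were smaller in size but steadier. ftz-f1 rose from 45.1 ± 8.93 to 91.8 ± 15.1 CPM (1.02 ± 0.17, edgeR adjusted p = 0.00384). Hr78 fell from 115.4 ± 7.69 to 87.5 ± 4.59 CPM (-0.40 ± 0.08, edgeR adjusted p = 0.00724). Both calls held in each of the 9 alternative fits and each of the 9 fits without 1 replicate. Eip75B (-0.54 ± 0.18, adjusted p = 0.0689), Hr39 (-0.36 ± 0.13, adjusted p = 0.0834) and Hr38 (0.70 ± 0.30, adjusted p = 0.131) did not pass in edgeR. Eip75B and Hr39 passed as falls with DESeq2 (adjusted p 0.0119 and 0.0288) and without control replicate 2 (edgeR adjusted p 0.0427 and 0.021). Eip75B also passed with library size alone (0.0469), and without wts day 5 replicate 1 (0.0208). In all, 3 genes were apart as lower (Eip78C, Hr39 and Hr78) and 2 as higher (ftz-f1 and Hr38), where the groups were apart for 17.8% of the tested genes as lower, 19.3% as higher and 37.1% in either direction.

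**Figure D4:**
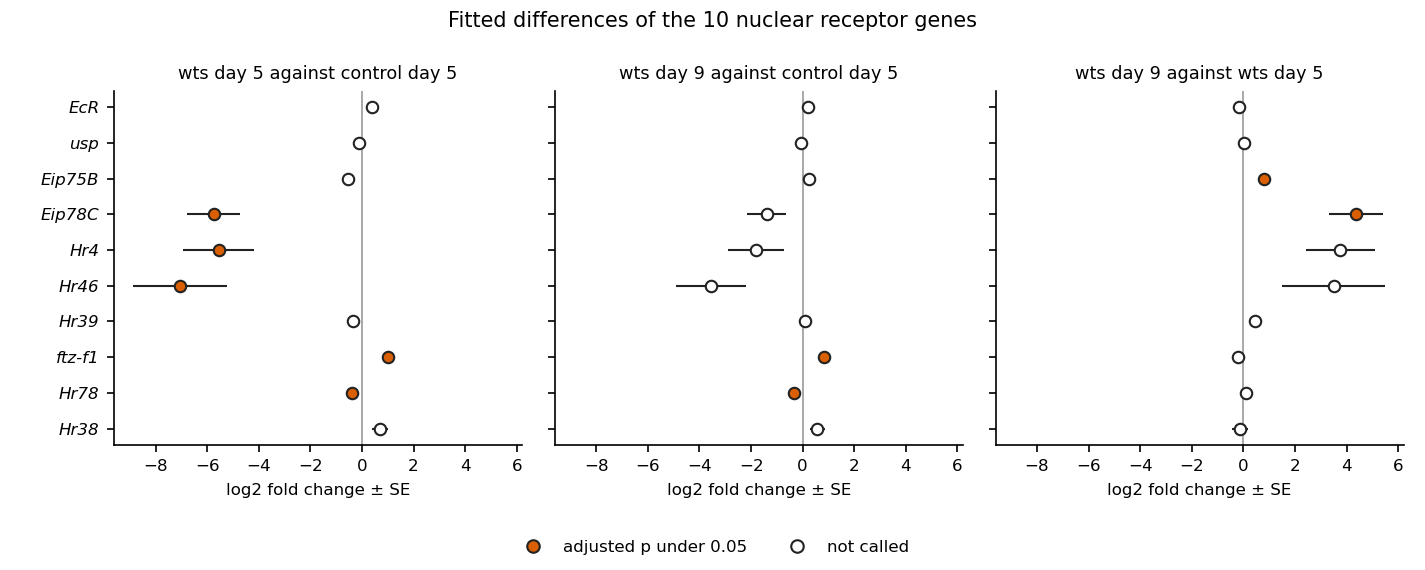
Fitted log2 fold changes (x axis) with SE of the 10 genes in the 3 comparisons (3 replicates a group). Filled points passed an adjusted p of 0.05. Hr4 and Hr46 are at -5.56 and -7.06 on day 5 with long error bars, while ftz-f1 and Hr78 have short ones.

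The same genes were then compared between wts discs of day 9 and the day 5 controls, which share the control replicates with the comparison above. Only ftz-f1 rose and only Hr78 fell among the 10 genes, where 15.3% and 14.3% of all genes tested were called higher and lower, and 29.6% either way. ftz-f1 reached 79.7 ± 12.4 CPM (0.82 ± 0.17, edgeR adjusted p = 0.00637), and Hr78 stood at 92.6 ± 7.56 CPM (-0.32 ± 0.08, edgeR adjusted p = 0.013). The call of Hr78 ended without wts day 9 replicate 2 (adjusted p 0.0713). These 2 genes were also the ones whose groups did not overlap, as was the case for 22.1% of genes as higher and 22.4% as lower, or 44.5% either way.

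Eip78C, Hr4 and Hr46 had mean levels between those of the other groups on day 9, whereas that of Hr39 (199 CPM) was above both. Eip78C was at 14.5 ± 10.4 CPM (-1.39 ± 0.76 against control, edgeR adjusted p = 0.192), Hr4 at 33.1 ± 28.5 CPM (-1.81 ± 1.08, adjusted p = 0.231) and Hr46 at 1.59 ± 1.93 CPM (-3.56 ± 1.35, adjusted p = 0.0725). None of these passed, and the groups overlapped. Without control replicate 2 all 3 passed as lower (edgeR adjusted p 0.0271, 0.0235 and 0.00634), with fold changes of -1.91, -2.39 and -4.16. Median log2 fold changes were 0.0056 over the 10 genes and -0.014 over all genes.

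Within the wts genotype, day 9 discs were compared with day 5 discs. Eip75B rose from 144 ± 36.4 to 248 ± 34.1 CPM (0.78 ± 0.19, edgeR adjusted p = 0.0319), and Eip78C rose from 0.701 ± 0.0768 to 14.5 ± 10.4 CPM (4.36 ± 1.04, adjusted p = 0.033). None of the 10 genes fell by edgeR or DESeq2, and none had a negative fold change at an unadjusted p under 0.05. Of all genes, 5.44% were called higher, 2.9% lower and 8.34% either way. The call of Eip78C ended without each wts day 5 replicate in turn and without wts day 9 replicate 1 or 3, and that of Eip75B without wts day 5 replicate 2 or 3 and each wts day 9 replicate in turn. The highest adjusted p among those fits was 0.129 for Eip78C and 0.121 for Eip75B.

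Hr4 was higher on day 9 in every replicate (3.75 ± 1.34, edgeR adjusted p = 0.107) and so was Hr39 (0.45 ± 0.13, adjusted p = 0.0624). Neither passed in the fit of 3 groups, and both passed with DESeq2, in the fit of the 2 groups compared and without control replicate 2 (adjusted p 0.00661 to 0.0298). Hr39 also passed with every gene with a count, with the b libraries alone and without control replicate 3 (0.0393 to 0.0478). With Eip75B and Eip78C they made 4 genes whose groups did not overlap, all higher, where 18.2% of all genes were apart as higher, 17.3% as lower and 35.5% either way. Hr46 (3.50 ± 1.99, adjusted p = 0.288), ftz-f1 (-0.21 ± 0.17, adjusted p = 0.471), Hr78 (0.08 ± 0.08, adjusted p = 0.533) and Hr38 (-0.13 ± 0.30, adjusted p = 0.813) did not pass. The median fold change was 0.27 over the 10 genes and -0.015 over all genes.

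Other hormone-induced genes were counted in a list of 21 early and early-late genes that are not members, of which 20 were tested. On day 5, 5 fell and none rose in wts discs (median log2 -0.50, against -0.0018 over all genes). They were Blimp-1, the secreted and surface protein genes ImpE1, ImpE2 and ImpE3, and the broad gene br. Levels of Blimp-1 were 110, 0.578 and 105 CPM in the controls, 0.466, 0.492 and 0.104 CPM in wts day 5 discs and 61.6, 6.26 and 44.3 CPM in wts day 9 discs, low in the same replicates as Hr4. The falls numbered 3 and 2 without wts day 5 replicates 2 and 3. The day 5 call of Blimp-1 ended with limma-voom and without each wts day 5 replicate in turn (adjusted p 0.0529 to 0.626). That of br ended in 6 other fits (0.0538 to 0.0949), those of ImpE1 and ImpE3 in 1 each, and that of ImpE2 in none. Between wts day 9 and day 5, 11 of the 20 rose and none fell (median log2 1.08, against -0.015 over all genes), including ImpE2 (3.49 ± 0.73), ImpE3 (3.50 ± 0.72), Eip93F, the adult specifier E93 (2.76 ± 0.48), and Cyp18a1 (2.08 ± 0.48). The rises numbered 5, 1 and 1 without wts day 5 replicates 1, 2 and 3, and 4, 5 and 2 without wts day 9 replicates 1, 2 and 3. Eip93F had few counts, 143 over all 9 replicates. It stood at 0.156 to 0.533 CPM in controls and wts day 5 discs and at 1.55 to 2.17 CPM in wts day 9 discs. Its call against wts day 5 ended without wts day 5 replicate 2 or 3 (edgeR adjusted p 0.0550 to 0.0681). Against control, wts day 9 discs had 6 rises, among them Eip93F (2.33 ± 0.46), Cyp18a1 (1.90 ± 0.47) and Kr-h1 (0.44 ± 0.07). They had 2 falls, the death gene rpr (-1.20 ± 0.23) and crol. The rises numbered 4 without wts day 9 replicate 2 or 3. The falls numbered 4 without control replicate 2, and 1 without control replicate 3, any wts day 5 replicate or wts day 9 replicate 2 or 3.

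The shares of all tested genes called, 9.64% higher and 8.88% lower on day 5, 15.3% and 14.3% on day 9 against control, and 5.44% and 2.9% between the wts groups, are the background for the counts of each list.

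Genes of hormone synthesis, import and inactivation (14 listed, 10 tested) had 3 falls on day 5, dib, sad and shd, all at or below 5.53 CPM in every replicate. Without a replicate the number of falls was 0 to 3, with fewer than 2 without control replicate 1 and wts day 5 replicates 1 and 3. On day 9 against control, Cyp18a1, which inactivates ecdysteroids, and the sterol transport gene Npc1a rose and dib fell, and against wts day 5 Cyp18a1 rose alone. The 3 of 10 called on day 9 against control are near the 29.6% of all genes called either way. Cyp18a1 stood at 4.12, 1.02 and 3.95 CPM in controls, at 3.42, 2.74 and 1.82 CPM in wts day 5 discs and at 12.4, 7.25 and 14.1 CPM in wts day 9 discs, above all others. Its day 9 call against control ended without wts day 9 replicate 3 (adjusted p 0.0525), and that against wts day 5 without any 1 of the 6 wts replicates (0.05004 to 0.119).

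Of 13 cofactor genes of the receptor pair, 1 fell on day 5, the chaperone gene Hsp83, which is near the background of 8.88%. On day 9 against control Hsc70-4 rose and the remodeller gene Mi-2 fell, fewer than the 29.6% of all genes called either way, and none passed between the wts groups. Each of these calls ended in at least 6 of the fits without 1 replicate or under another setting (adjusted p 0.0512 to 0.165). Hsp83 had 6860, 6165 and 3346 CPM in the controls and 2675 to 3866 CPM in wts day 5 discs, so the groups overlapped.

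Of 10 prepupal genes that respond to ftz-f1 or Blimp-1 or form cuticle, 8 were tested. Edg84A and Tb had 0 counts in all 9 replicates and were not tested. The chitinase gene Cht5 rose on day 9 against control (1.26 ± 0.19, edgeR adjusted p = 0.00152) and against wts day 5 (1.99 ± 0.20, adjusted p = 0.00132), from 32.4 to 49.0 CPM in wts day 5 discs to 143 to 167 CPM. The chitin synthase gene kkv and the cuticle gene Edg78E also rose on day 9 against control, while Edg91 and Ddc fell. The call of Ddc ended in 12 other fits, 8 of them without 1 replicate (adjusted p 0.0547 to 0.192), and that of Edg78E in 5 (0.0529 to 0.1). Edg78E had few counts, 69 over all 9 replicates, and at most 1.04 CPM in any of them. On day 5, 3 genes fell, Cht5, Ddc and ple, and none remained without control replicate 1 or wts day 5 replicate 3.

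Of 11 other nuclear receptor genes, 7 were tested. The knirps family genes kni, knrl and eg rose and svp fell on day 5, and 1 rose without control replicate 1 or 2 or any wts day 5 replicate. svp did not pass when control replicate 1 or 3 was left out, nor without replicate 2 or 3 of either wts group. On day 9 kni, knrl and Hnf4 rose against control, and Hnf4 rose against wts day 5 (0.39 ± 0.07, edgeR adjusted p = 0.0159). That call of Hnf4 ended without replicate 2 or 3 of either wts group (0.0507 to 0.066). Of 8 juvenile hormone and temporal identity genes, 7 tested, chinmo and Imp rose and br fell on day 5, and chinmo, Imp, Eip93F, Kr-h1 and Met rose on day 9 against control. The day 9 rises numbered 3 without control replicate 1 or wts day 9 replicate 2. Between the wts groups Eip93F, Kr-h1 and br rose, and 1 rose without wts day 5 replicate 2 or 3.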

How the data were processed

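RNA-seq read counts per gene were deposited for 18 libraries, and per the submitters' processing notes HTSeq was used. Neither its version nor the aligner, build, annotation or strand setting is stated in the sources used here. The a and b libraries of a replicate were summed, since they share a replicate number and differed little. Chi-square per degree of freedom was 0.994 to 1.06 in 9 pairs, against 11.1 to 58.9 between replicates, and 2 pairs differed beyond sampling noise (p = 8.52e-05 in control replicate 1 and p = 0.0129 in wts day 5 replicate 3, chi-square test over genes). Single libraries held 5611674 to 11193858 counts. Genes were filtered with filterByExpr and normalised with TMM, and the 3 groups were fitted together with edgeR 4.0.16 (R 4.3.3) by the quasi-likelihood test, with Benjamini-Hochberg adjustment over 8585 genes and a threshold of 0.05. CPM are the summed counts per 1000000 of the TMM-scaled library size. limma 3.58.1, DESeq2 1.42.0, other normalisations and filters, single libraries, a replicate block and fits without each replicate were alternatives. The edgeR step was tested on simulated data.

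Gene positions, overlaps and merged exon lengths come from Ensembl release 115, BDGP6, which may differ from the authors' build. All 10 genes were named in every comparison. From each pathway list, up to 4 genes with the smallest adjusted p were named, and any gene needed for a count of 5 or fewer. For likeness, the 3 nearest genes were found among those averaging 1 CPM or more. The members and lists were chosen with earlier results of these data known. The lists share Kr-h1, br, Cyp18a1, Eip93F and the nuclear receptor gene Hr51, which was not tested. Intervals are 95% and cover counting error only.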

Additional observations from a re-analysis of the deposited data

How the results depend on the processing

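The number of the 10 genes called higher in wts day 5 discs against control (1 as reported) was 2 with every gene that had a count and 2 with DESeq2, and 1 to 2 without 1 replicate. The number called lower (4) was 1 with limma-voom, 3 in the fit of the 2 groups compared, 5 with library size alone, 6 with DESeq2, 6 with the replicate block and 2 to 6 without 1 replicate. The replicate block added Eip75B (adjusted p 0.0295) and Hr39 (0.0333), as did DESeq2. In wts day 9 against control, the number lower (1) was 3 with the replicate block, which added Eip78C and Hr46, and 0 to 4 without 1 replicate, while the number higher stayed at 1. In wts day 9 against wts day 5, the number higher (2) was 4 in the fit of the 2 groups compared, 4 with DESeq2 and 1 with limma-voom, and 0 to 4 without 1 replicate, while the number lower stayed at 0. The replicate block gave 3 higher, adding Hr39 (adjusted p 0.0288). The causes were not tested.

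Of the single genes, 2 uncalled differences changed sign when 1 replicate was left out. Hr39 on day 9 against control ran from -0.037 (control replicate 2 left out) to 0.21, and was -0.0069 with wts day 9 replicate 1 left out. Hr38 on day 9 against wts day 5 ran from -0.31 to 0.11 (wts day 9 replicate 3 left out), and was 0.030 with wts day 5 replicate 2 left out. Deviations of same-numbered replicates from their group means correlated at -0.167 to 0.244, with 2 of 9 pairs over 0.1, and 4 of 9 replicates correlated best with their own number, so the numbers were not taken to pair the samples. With 0 to 4 counts of Hr46 in 5 replicates, differences among those replicates were not detectable at this depth. Fits of the pathway lists under these alternatives were added after seeing the data.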
